A study of Mus musculus with 2 samples.

Results

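Expression of 10 mast cell genes was followed in inflamed mouse ear skin, out of 34745 genes in the deposited table. They were named one by one and grouped by role, as the granule proteases Mcpt4, Cma1, Tpsb2, Tpsab1 and Cpa3, the receptors Kit, Mrgprb1 and Mrgprb2, the prostaglandin synthase Hpgds and the transcription factor Gata2. The table holds 1 library of ear skin labelled WT (wild type) and 1 labelled KAT8-cKO, a conditional knockout of the histone acetyltransferase KAT8. Mice of both genotypes had received 30 mg of a 5% imiquimod cream on each ear daily for 3 days, and ears were taken on day 4. Imiquimod activates a receptor for RNA on immune cells and produces a psoriasis-like inflammation. The promoter or cell type that drives the knockout, and the strain, age, sex and number of mice behind each library, were not given in the sources used here. Both specimens were treated, so the values do not give the response to imiquimod.

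Mast cells are tissue-resident leukocytes that store preformed mediators in granules. In mouse skin they are mostly of the connective tissue type, whose granules hold chymases, tryptases and carboxypeptidase A3 bound to heparin, with histamine. They depend on the receptor tyrosine kinase KIT, are triggered through the high-affinity IgE receptor or through MRGPRB2, a receptor for basic peptides and drugs, and then release granules and make prostaglandin D and leukotrienes. GATA2 is a transcription factor required for their identity.

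The libraries held 12179608 counts (WT) and 13727524 counts (KAT8-cKO), and 15240 genes reached 1 CPM, a count scaled to a fixed total, in either library and are called measured. Kat8, the targeted gene (chromosome 7 from 127912516 to 127925837), was no lower in the library that carries the knockout label. It had 219 counts (WT) and 351 counts (KAT8-cKO), a ratio of CPM of 1.27 with a 95% interval from 1.07 to 1.51. Kat8 shares exon sequence with Prss8, and the table has 1 value per gene, which also covers cells and exons outside a deletion. The libraries are therefore called WT-labelled and cKO-labelled. Sex-linked RNA differed as well. Xist had 11891 and 6 counts, and the Y-linked genes Eif2s3y, Kdm5d and Ddx3y had 0 and 838, 0 and 305, and 5 and 635. By these genes the WT-labelled library came from female tissue and the cKO-labelled library from male tissue. Tissue markers outside the mast cell also differed between the specimens. Summed CPM (WT-labelled, then cKO-labelled) was 13374 and 2591 for 8 skeletal muscle genes, 2824 and 304 for 8 adipocyte genes, 14040 and 5083 for 10 neutrophil genes, 677 and 3005 for 8 sebocyte genes, and 172 and 9.03 for 6 red cell genes. S100a8 (5844 and 2230 CPM) and S100a9 (4739 and 2372 CPM) made up most of the neutrophil sum, which hides larger differences of other genes in that list. In the sebocyte list 7 genes were at least 2-fold higher, while Plin2 had 482 and 385 CPM. Fibroblast markers (10 genes) summed to 3692 and 4601 CPM and basal keratinocyte markers (7 genes) to 22579 and 27198 CPM. Of the fibroblast genes, Col1a1 was at least 2-fold higher and Dpt, Mfap5 and Pi16 at least 2-fold lower. Of the keratinocyte genes, Krt15 (47.5 and 322 CPM) and Col17a1 (533 and 1073 CPM) were at least 2-fold higher. The part of all these tissues in the values below was not tested. With 1 library per genotype there is no replicate check, and genotype, sex-linked RNA and specimen make-up cannot be told apart.

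All 10 mast cell genes had counts in both libraries, and they did not differ in a common direction, with 6 log2 ratios above 0 and 4 below. Of these, Tpsab1 (0.004), Gata2 and Mrgprb2 had ratio intervals that span 1, so their direction is not settled. In the cKO-labelled library Mcpt4 was higher and Hpgds lower by 2-fold or more, and the other 8 lay within 2-fold. Over the 15240 genes measured, 4.56% were higher and 8.63% lower by that rule. The split of all such genes depended on the scaling, with 695 higher and 1315 lower after scaling by trimmed means (TMM) and 964 and 1056 with plain CPM. The median log2 ratio of the 10 genes was 0.11, beside 0.01 over all measured genes. It is the log2 of KAT8-cKO CPM plus 1 over WT CPM plus 1, which understates differences of low genes. Folds below are plain ratios of CPM, KAT8-cKO over WT, with exact (Clopper-Pearson) 95% intervals that cover counting error only. In whole skin, fewer mast cells and less of an RNA per cell cannot be told apart. In the plot against all measured genes, Mcpt4 and Hpgds lie just outside the 2-fold lines and the other 8 between them.

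**Figure D1:**
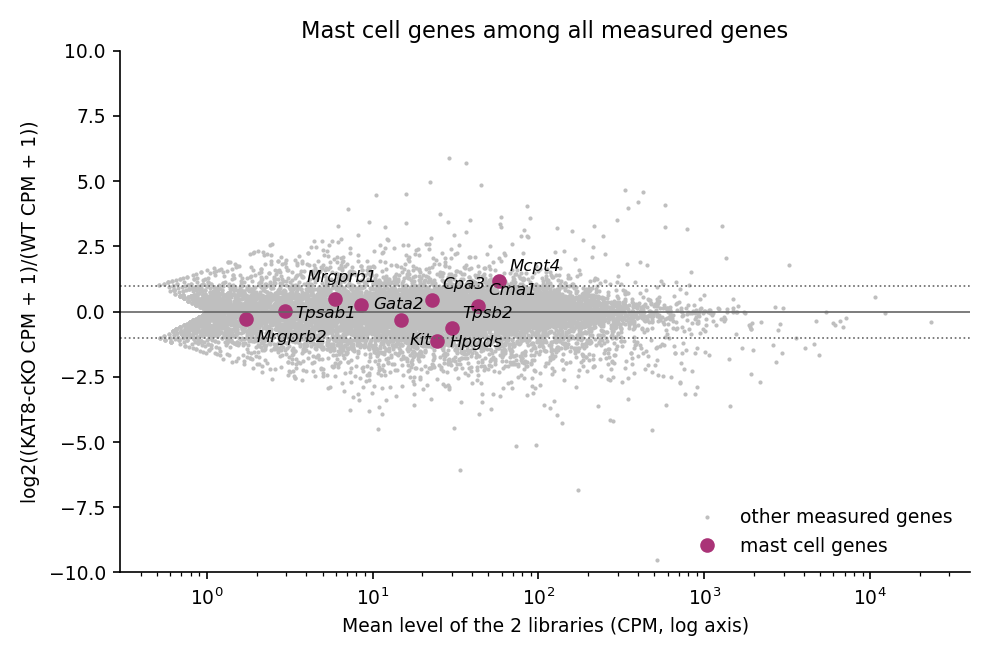
Log2 ratio of KAT8-cKO over WT (each CPM plus 1) against the mean CPM of the 2 libraries (log axis) for all measured genes (grey) and the 10 mast cell genes (purple). Dotted lines mark 2-fold, which Mcpt4 (1.16) passes upward and Hpgds (-1.12) downward.

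Compared per kilobase of exon, the proteases were the most abundant of the 10 genes in both libraries, apart from the tryptase gene Tpsab1. In the WT-labelled library the chymase gene Cma1 led with 36.7 CPM per kb, followed by Mcpt4 (31.7), Tpsb2 (23.1) and Cpa3 (12.6). Their counting intervals do not overlap for Tpsb2 and Cpa3, but do for Cma1 (33.4 to 40.2) and Mcpt4 (28.7 to 35.0). In the cKO-labelled library the order was Mcpt4 (72.2), Cma1 (42.9), Cpa3 (17.4) and Tpsb2 (14.7), so Mcpt4 moved above Cma1. The last pair had overlapping intervals and stood at 18.3 and 18.2 when the longest transcript was used as the length. Hpgds came next in both libraries, at 5.26 and 2.34 CPM per kb. Kit, Gata2, Tpsab1, Mrgprb1 and Mrgprb2 followed between 0.697 and 1.87 CPM per kb, and several of these neighbours do not differ beyond counting error.

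**Figure D2:**
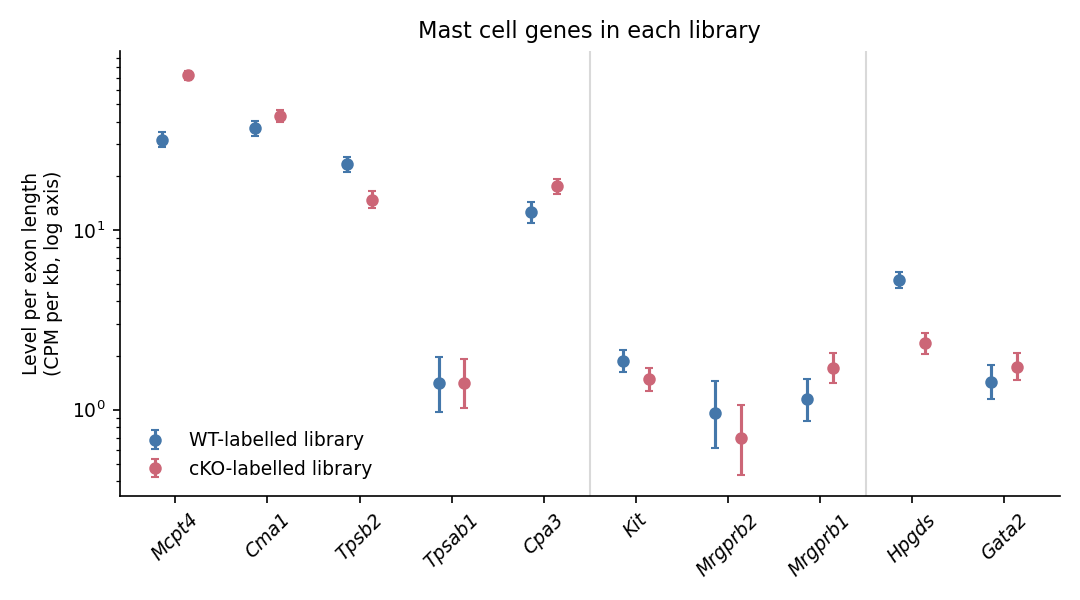
Level of each mast cell gene in CPM per kilobase of exon (log axis) in the WT-labelled library (blue) and the cKO-labelled library (red), 1 library each. Bars are exact 95% Poisson intervals of the count. Mcpt4 runs from 31.7 to 72.2 and Hpgds from 5.26 to 2.34, while the intervals of the 2 libraries overlap for Cma1, Tpsab1, Kit, Mrgprb1, Mrgprb2 and Gata2. Overlap does not show equal levels, and the ratio intervals of Cma1, Kit and Mrgprb1 lie off 1.

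Mcpt4 encodes mast cell protease 4, the main chymase of connective tissue mast cells in the mouse, which cuts after aromatic residues. It lies on chromosome 14 from 56059629 to 56062313 on the minus strand. Its level was 405 counts (35.2 CPM) in the WT-labelled library and 1161 counts (80.0 CPM) in the cKO-labelled library. The cKO-labelled library was thus 2.28-fold higher (interval 2.03 to 2.55), and 3.33% of measured genes had a higher log2 ratio. Cma1, which encodes the chymase known as mast cell protease 5, lies from 55941451 to 55944675 on the same strand, with Cma2, Mcpt1, Mcpt9 and Mcpt2 between it and Mcpt4. It had 461 counts (40.0 CPM) and 678 counts (46.7 CPM), a ratio of 1.17 (interval 1.04 to 1.32). The 2 chymase genes, whose aligned coding bases are 67.6% identical, therefore differed unequally between the libraries. Among the counts of both, Mcpt4 took 46.8% (exact interval 43.4 to 50.2) in the WT-labelled library and 63.1% (60.9 to 65.3) in the cKO-labelled library. This share does not depend on the scaling between libraries.

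The chymase locus also holds the mucosal mast cell proteases and the granzymes, most of which were at or near 0. Of 15 protein-coding genes of the Mcpt, Cma, Ctsg and Gzm families on chromosome 14 that lie in this cluster, 6 had no count in either library and 4 were measured, namely Cma1, Mcpt4, Mcpt8 and Gzmb. Mcpt1 and Mcpt2, proteases of mucosal mast cells, had 0 and 2 counts and 0 and 0 counts. A count of 0 allows up to 0.260 CPM in the WT-labelled library and 0.207 CPM in the cKO-labelled library, by a floor of 3 counts. Mcpt8, a basophil protease gene, had 5 and 17 counts, a ratio of 2.70 with an interval from 0.956 to 9.36. Gzmb, which encodes granzyme B of cytotoxic lymphocytes, had 34 and 50 counts and a ratio of 1.17. Of 1059 windows of 50 bases in the Mcpt4 transcript, 58 (5.48%) also occur in Cma2 or Mcpt9. These had 0 and 3 counts (Cma2) and 0 and 1 counts (Mcpt9), so few counts were assigned to them. In the Cma1 transcript, 56 of 1041 such windows (5.38%) also occur in Gm48934, whose counts are not given here.

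The tryptase gene Tpsb2, which encodes mast cell protease 6, went the other way from Mcpt4. Tpsb2 (chromosome 17 from 25366305 to 25369098, plus strand) had 425 counts (36.9 CPM) in the WT-labelled library and 341 counts (23.5 CPM) in the cKO-labelled library. It was 1.57-fold lower in the latter (interval 1.36 to 1.82), short of the 2-fold rule. Tpsab1 (from 25343245 to 25345562, minus strand), which encodes mast cell protease 7, had 34 counts (2.95 CPM) and 43 counts (2.96 CPM). Its ratio was 1.004 with an interval from 0.625 to 1.62, so a moderate difference in either direction was not detectable at this depth. Per kb of exon Tpsab1 stood at 1.41 CPM in both libraries, against 23.1 and 14.7 for Tpsb2, with Tpsab1 taking 7.41% (interval 5.18 to 10.2) and 11.2% (8.22 to 14.8) of the counts of the pair. Reads of close copies can be split in counting, so the most similar stretch of 90 coding bases is shown for the pair, with bases that differ in capitals.

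Tpsb2, coding bases 724 to 813: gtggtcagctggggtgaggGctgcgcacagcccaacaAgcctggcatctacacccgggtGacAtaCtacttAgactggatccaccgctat
Tpsab1, coding bases 826 to 915: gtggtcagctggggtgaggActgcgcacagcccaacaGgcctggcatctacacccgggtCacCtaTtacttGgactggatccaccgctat

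Even in this stretch the tryptase genes differ at 6 bases, and over 830 aligned coding bases they are 76.1% identical. The longest identical run in the coding alignment is 39 bases. No window of 50 bases of Tpsb2 or Tpsab1 transcripts was found in a transcript of any other gene of GENCODE M21, on either strand. The read length was not given in the sources used here.

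Cpa3 encodes carboxypeptidase A3, an exopeptidase stored with the chymases (chromosome 3 from 20215620 to 20242181, minus strand). It had 220 counts (19.1 CPM) and 384 counts (26.5 CPM), a ratio of 1.39 (interval 1.17 to 1.64). Summed over the 5 proteases, the WT-labelled library had 1545 counts (134 CPM) and the cKO-labelled library 2607 counts (180 CPM). That is a ratio of 1.34 (interval 1.26 to 1.43), or 1.497 with plain CPM. Without Mcpt4 the other 4 proteases together came to 99.0 and 99.6 CPM with TMM scaling, a ratio of 1.01 (interval 0.931 to 1.09). Without TMM factors they took 0.00936% and 0.0105% of all counts, so the near equality depends on the scaling. The sum also joins Tpsb2, which was lower, with Cma1 and Cpa3, which were higher. Within the protease counts of each library, Mcpt4 took 26.2% (WT-labelled) and 44.5% (cKO-labelled), and Tpsb2 27.5% and 13.1%. Cma1 took 29.8% and 26.0%, Cpa3 14.2% and 14.7% and Tpsab1 2.20% and 1.65%, each with overlapping intervals. For Cma1 the overlap was narrow (27.6 to 32.2 and 24.3 to 27.7), and overlap does not show equal shares. Chymases made up 65.4% (62.7 to 67.9) of chymase and tryptase counts in the WT-labelled library and 82.7% (81.1 to 84.3) in the cKO-labelled library.

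**Figure D3:**
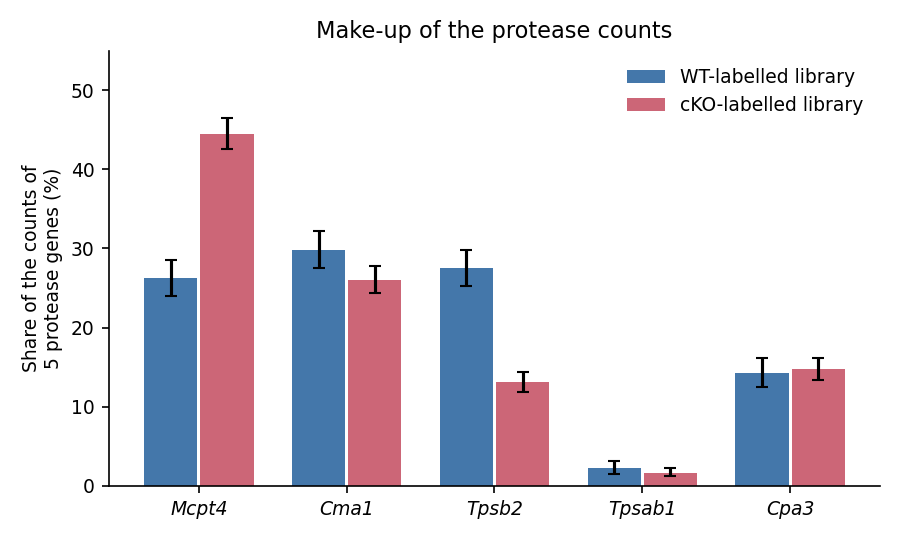
Share of each gene (percent) in the counts of the 5 protease genes, WT-labelled library in blue and cKO-labelled library in red, with exact 95% binomial intervals. Mcpt4 takes 26.2% and 44.5%, Tpsb2 27.5% and 13.1%, and the intervals of Cma1, Cpa3 and Tpsab1 overlap between the libraries, narrowly for Cma1.

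KIT, the receptor for stem cell factor, is the growth and survival receptor of mast cells and is also carried by melanocytes. Kit (chromosome 5 from 75574916 to 75656722, plus strand) had 192 counts (16.7 CPM) in the WT-labelled library and 191 (13.2 CPM) in the cKO-labelled library. The ratio was 0.790 (interval 0.643 to 0.970), and with plain CPM 0.883 with an interval from 0.719 to 1.08, which spans 1. The gene of its ligand, Kitl, made by keratinocytes, fibroblasts and endothelium, had 36.3 and 24.0 CPM. Melanocyte markers were low in both libraries. Of 7 such genes 4 were measured and none passed 2-fold, with summed levels of 16.1 and 24.7 CPM, and Slc45a2 was at 0 counts in the WT-labelled library. The 2 with the highest mean CPM, Dct and Pmel, had 5.82 and 10.6 CPM and 5.12 and 6.96 CPM. The part of melanocytes in the Kit value was not tested.

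Mrgprb2 was the lowest of the 10 genes per kb of exon in both libraries. It encodes the receptor for basic peptides and drugs and lies on chromosome 7 from 48550965 to 48558086 on the minus strand. Mrgprb2 had 23 counts (1.996 CPM) and 21 counts (1.45 CPM), and the ratio of 0.725 had an interval from 0.382 to 1.37. Mrgprb1, a related receptor gene (from 48444113 to 48456342, minus strand), had 55 counts (4.77 CPM) and 104 counts (7.17 CPM), a ratio of 1.501 (interval 1.07 to 2.12). The Mrgprb1 interval lay above 1 while that of Mrgprb2 spanned 1, and the 2 intervals overlap. Between them lies Mrgprx2, named after its values were seen, whose coding bases are 85.1% identical to Mrgprb1. It had 29 and 20 counts. No window of 50 bases in the Mrgprb1 or Mrgprb2 transcripts was shared with another gene.

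Other Mrgpr genes were mostly silent at this depth. Of 15 listed, 7 had no count in either library, including Mrgpra3 of itch-sensing neurons, and 4 were measured. Mrgpra2a and Mrgpra2b, which neutrophils express, had 41 and 6 counts and 105 and 38 counts, the latter 3.48-fold lower in the cKO-labelled library. Neutrophil markers were at least 2-fold lower in 8 of 10 cases there, and their part in these values was not tested. Mrgprf, at 6.25 and 13.9 CPM, was 2.23-fold higher, and Mrgpre had 1.65 and 1.03 CPM.

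Hpgds encodes the haematopoietic prostaglandin D synthase, which makes prostaglandin D in mast cells and also in macrophages and dendritic cells. It lies on chromosome 6 from 65117293 to 65144908 on the minus strand. Its level was 389 counts (33.8 CPM) in the WT-labelled library and 218 counts (15.0 CPM) in the cKO-labelled library. It was 2.25-fold lower in the latter (interval 1.90 to 2.67), and 7.13% of measured genes had a lower log2 ratio. With plain CPM or with a pseudocount of 5 CPM, its log2 ratio no longer passed the 2-fold rule, and none of the 10 genes was then counted as lower. Its ratio of plain CPM was 0.497 (interval 0.419 to 0.588). Macrophage markers summed to 1112 CPM in the WT-labelled library and 695 CPM in the cKO-labelled library. Of the 12, 4 were at least 2-fold lower (Cd68, Cd163, Folr2 and C1qc), 8 lay within 2-fold and none was at 0. Csf1r, the receptor for the macrophage growth factor, had 108 and 118 CPM, the other direction, and Adgre1 had 65.5 and 61.9 and Mrc1 121 and 108 CPM. Cd163, a scavenger receptor of resident macrophages, had 115 and 31.0 CPM, and Cd68 85.6 and 42.2. The complement genes C1qb and C1qc, with the highest mean CPM of the list, had 180 and 97.9 CPM and 170 and 77.9 CPM, and Folr2 had 23.3 and 9.99. The part of macrophages in the Hpgds value was not tested.

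Gata2 (chromosome 6 from 88193891 to 88207032, plus strand) had 89 counts (7.73 CPM) and 136 counts (9.37 CPM). The ratio was 1.21 with an interval from 0.922 to 1.60, which spans 1. With plain CPM it was 1.36 with an interval from 1.03 to 1.79, above 1. Endothelial cells also express Gata2. Endothelial markers came to 349 and 259 CPM, with 0 of 10 past 2-fold and a median log2 ratio of -0.49. Pecam1 had 84.8 and 67.5 CPM and Vwf 50.3 and 32.3 CPM. The part of endothelial cells in the Gata2 value was not tested.

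**Figure D4:**
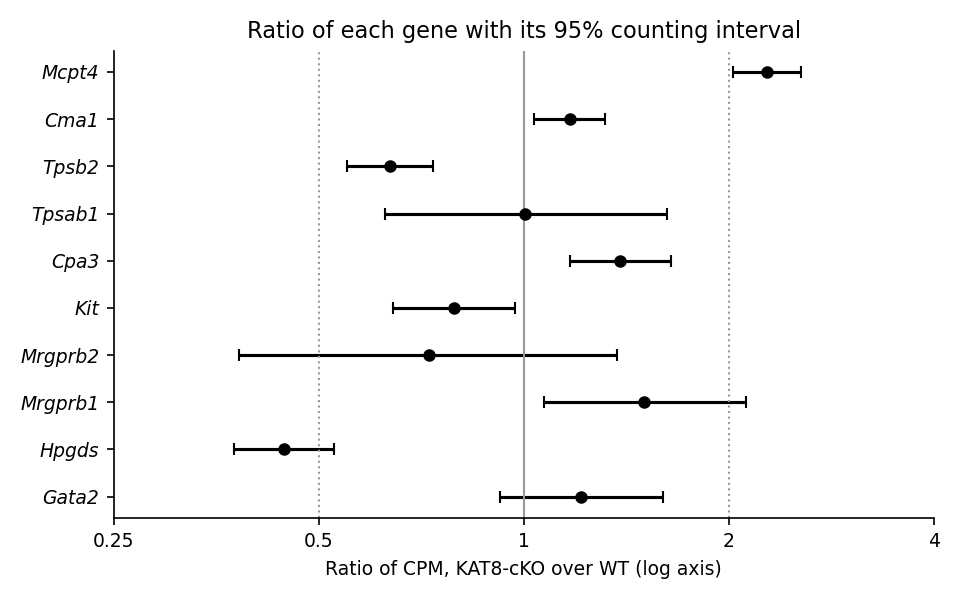
Ratio of CPM (KAT8-cKO over WT, log axis) of each mast cell gene with its exact 95% counting interval, and dotted lines at 2-fold. Mcpt4 (2.28) lies above 2 and Hpgds (0.445) below 0.5, 3 intervals span 1, and no replicate spread is included.

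Counting intervals lay off 1 for most measured genes and cover no spread between animals. They lay above 1 for 4 of the 10 genes (Mcpt4, Cma1, Cpa3 and Mrgprb1), beside 32.1% of measured genes. Intervals lay below 1 for 3 (Tpsb2, Kit and Hpgds), beside 31.9%. Tpsab1, Mrgprb2 and Gata2 had intervals that span 1. With plain CPM that of Gata2 lay above 1 and that of Kit spanned 1.

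Promoters are shown for the protease genes Mcpt4, Cma1 and Cpa3, which had ratios above 1, and for Hpgds, which had the lowest ratio. Mrgprb1 (1.501) and Gata2 (1.21) also had ratios above 1 and are not shown. Each is 300 bases from RefSeq (GRCm38), 250 before to 50 after the annotated start, printed 5′ to 3′. RefSeq windows were matched by symbol for 8 of the 10 genes. Capitals mark a GATA motif (AGATAA or AGATAG or TGATAA or TGATAG, either strand) or an E-box of the kind bound by MITF (CACGTG or CATGTG), a factor needed by mast cells and melanocytes. The Hpgds start in RefSeq lies inside the gene as GENCODE M21 draws it.

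Mcpt4, chr14:56062261-56062560, minus strand: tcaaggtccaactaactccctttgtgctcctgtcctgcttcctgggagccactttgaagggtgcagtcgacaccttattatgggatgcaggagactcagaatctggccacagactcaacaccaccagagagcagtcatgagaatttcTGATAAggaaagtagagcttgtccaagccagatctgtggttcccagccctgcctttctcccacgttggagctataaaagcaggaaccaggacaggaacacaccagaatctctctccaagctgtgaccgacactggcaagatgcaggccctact
Cma1, chr14:55944626-55944925, minus strand: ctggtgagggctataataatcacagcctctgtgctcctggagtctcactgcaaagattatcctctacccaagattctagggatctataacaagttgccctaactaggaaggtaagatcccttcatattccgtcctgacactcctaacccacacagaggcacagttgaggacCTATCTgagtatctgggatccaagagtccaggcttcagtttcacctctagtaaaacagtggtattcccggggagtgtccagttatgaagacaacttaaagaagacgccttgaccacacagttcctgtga
Cpa3, chr3:20242132-20242431, minus strand: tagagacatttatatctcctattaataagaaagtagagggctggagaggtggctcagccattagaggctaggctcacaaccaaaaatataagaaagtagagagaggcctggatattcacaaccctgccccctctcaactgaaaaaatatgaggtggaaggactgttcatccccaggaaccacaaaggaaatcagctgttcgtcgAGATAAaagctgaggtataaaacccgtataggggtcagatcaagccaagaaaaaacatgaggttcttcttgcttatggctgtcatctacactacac
Hpgds, chr6:65144681-65144980, minus strand: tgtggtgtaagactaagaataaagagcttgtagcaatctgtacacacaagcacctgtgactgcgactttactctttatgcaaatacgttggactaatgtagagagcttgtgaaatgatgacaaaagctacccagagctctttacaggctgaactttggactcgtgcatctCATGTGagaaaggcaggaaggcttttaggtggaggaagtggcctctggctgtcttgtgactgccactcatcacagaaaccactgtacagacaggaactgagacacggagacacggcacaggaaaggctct

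A GATA motif was found in 5 of the 8 matched genes, beside 29.8% of 32851 promoters of the same length. The 8 genes have 10 promoter entries, with no motif in either entry of Kit or of Gata2. Shares over all promoters count entries and not genes, so the units are unlike. Mcpt4 has TGATAA at 103 bases before the start, Cpa3 has AGATAA at 46 bases before it, and Cma1 has the reverse complement CTATCT at 79 bases before it. Mrgprb1 and Mrgprb2 hold 2 and 1 such motifs. Kit, Gata2 and Hpgds have none in these windows. Of the genes with a motif, Mcpt4, Cma1, Cpa3 and Mrgprb1 had ratios above 1, and Mrgprb2 had 0.725 (interval 0.382 to 1.37). Of those without one, Kit and Hpgds had ratios below 1, and Gata2 had 1.21 (interval 0.922 to 1.60). The intervals of Mrgprb2 and Gata2 span 1. A link between motif and ratio was not tested. Hpgds holds 1 CATGTG, and an E-box of either form was found in 1 of the 8 genes and in 20.4% of all promoters. A match is a string of letters and not a measured binding site. Mitf itself had 15.5 CPM in the WT-labelled library and 3.86 CPM in the cKO-labelled library, 4.00-fold lower (interval 2.95 to 5.51). The part of Mitf in the Hpgds value was not tested.

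Other parts of the mast cell programme were read from lists written with earlier results of these data known. Of 9 further granule protease genes of mast cells, basophils and lymphocytes, 3 were measured, and the summed level was 4.69 and 7.10 CPM. None passed 2-fold by the log2 rule with its pseudocount. Among them Tpsg1, a membrane-anchored tryptase gene, had 8 and 24 counts. Its plain ratio was 2.38 (interval 1.04 to 6.13), but its log2 ratio of 0.65 fell short of the rule. Mcpt8 likewise had a plain ratio of 2.70 (interval 0.956 to 9.36) and a log2 ratio of 0.60. Basophil markers were scarce, with 2 of 5 measured and summed levels of 2.43 and 2.89 CPM, and Il13 was at 0 counts in the WT-labelled library. Cd200r3 had 14 and 17 counts.

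Histamine and granule genes gave a mixed picture. The list had 6 measured genes, of which 2 were lower and 1 was higher (median log2 ratio -0.02). Hdc, which makes histamine, went from 532 to 142 CPM (3.74-fold lower), and Srgn, the core protein of granule proteoglycans, from 1073 to 190 CPM (5.66-fold lower). Both genes are also expressed by neutrophils and other myeloid cells, and the neutrophil markers summed to 14040 and 5083 CPM (median log2 ratio -1.88). Their part was not tested. Slc18a2, which loads amines into granules, had 13 and 50 counts, a ratio of 3.05 (interval 1.63 to 6.13), the direction of Mcpt4. Ndst2, which sulphates heparin, had 29.5 and 39.5 CPM.

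None of the 3 chain genes of the high-affinity IgE receptor passed 2-fold. Fcer1a, its IgE-binding chain, had 75 counts (6.51 CPM) in the WT-labelled library and 44 (3.03 CPM) in the cKO-labelled library, a plain ratio of 0.466 (interval 0.314 to 0.685) but a log2 ratio of -0.90, short of the rule. Ms4a2, the beta chain found in mast cells and basophils, had 24 and 19 counts, a ratio of 0.628 with an interval from 0.325 to 1.20, which spans 1. Fcer1g, the gamma chain shared with other Fc receptors and many myeloid cells, had 185 and 108 CPM. Of 11 genes of the receptor and its signalling, 1 was lower, 1 higher and 9 within 2-fold (median log2 ratio -0.47). The lower one was the kinase gene Syk, with 202 and 85.2 CPM, and the higher one Lat, an adaptor of T cells and mast cells, with 19 and 85 counts.

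Among 8 other surface receptors of mast cells, 7 were measured, and the complement receptor gene C5ar1, also on neutrophils and macrophages, was the 1 past 2-fold (99.6 and 35.1 CPM). Il1rl1, the receptor for IL-33, had 11.7 and 7.03 CPM. The 2 with the highest mean CPM were Cd63, a granule membrane protein used as a degranulation marker, at 228 and 202 CPM, and Csf2rb, at 171 and 124 CPM. The median log2 ratio was -0.18.

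In the list of KIT ligand and transcription factors, 8 of 9 were measured, with Mitf lower, Zfpm1 higher and 6 within 2-fold (median -0.14). Zfpm1, which encodes the GATA partner FOG1, had 14.3 and 38.4 CPM, 2.68-fold higher (interval 2.25 to 3.21). Gata1 had 1 and 0 counts. Spi1 and Stat5b, highest by mean CPM, had 120 and 88.5 CPM and 67.4 and 53.3 CPM.

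Genes around Hpgds in eicosanoid synthesis were lower in 3 of 8 measured cases and higher in none (median -0.64). Ptgs2, the inducible cyclooxygenase, had 219 and 59.9 CPM, Alox5 29.8 and 12.8 CPM, and its activating protein gene Alox5ap 437 and 138 CPM. Ptgs1, the other cyclooxygenase, had 56.2 and 69.5 CPM. Ltc4s, which makes leukotriene C, had 9.37 and 5.44 CPM. Myeloid cells express Alox5, Alox5ap and Ptgs2, and the neutrophil and macrophage sums were lower in the same library (5083 against 14040 and 695 against 1112 CPM). Their part was not tested.

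**Figure D5:**
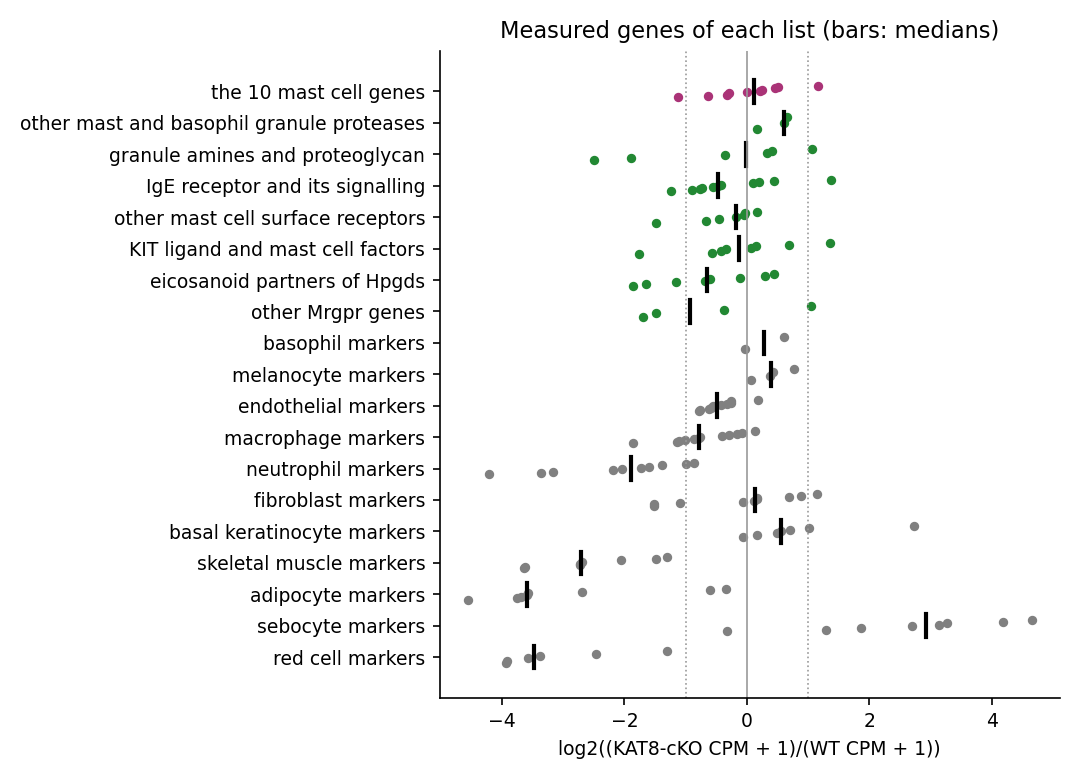
Log2 ratio (KAT8-cKO over WT, each CPM plus 1) of every measured gene in the 10 mast cell genes (purple), the related lists (green) and the cell type marker lists (grey), with black bars at the medians. The mast cell genes centre at 0.11, the neutrophil markers at -1.88 and the macrophage markers at -0.78.

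Within 250 kb of Mcpt4, 7 of 19 other protein-coding genes were measured. None passed 2-fold by the log2 rule, where 13.2% of all measured genes did in either direction. Hpgds had 2 such neighbours, 1 of them measured, and it did not pass. These numbers are too small to set the neighbours apart from other genes. None of the 10 genes has an exon that overlaps another gene's exon. The windows of Hpgds shared with other genes were 26 of 6363, or 0.409%.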

How the data were processed

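RNA was measured in 1 ear skin library per genotype. Per the labels' protocols, libraries were made from messenger RNA for Illumina sequencing. The authors deposited raw, unnormalized counts per Ensembl gene. Per the submitters' processing notes, HISAT2, StringTie 1.3.0, edgeR and build mm10 were used, without stated roles. Counting tool, annotation release and strand setting were not given in the sources used here.

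Identifiers were paired with GENCODE M21 symbols (GRCm38, the assembly of mm10), found for 34267 of 34745 genes. Counts were divided by totals times TMM factors (0.946 for WT, 1.06 for KAT8-cKO, edgeR 4.0.16 in R 4.3.3) to give CPM. One count was 0.0868 and 0.0689 CPM. A gene was measured at 1 CPM or more in either library and counted as at least 2-fold different at a log2 ratio of 1 in size, with a pseudocount of 1 CPM. Levels per kb use the union of exons. Coding alignments used Biopython 1.88. No test or p-value was possible with 1 library per group. Reads lack molecular identifiers, so intervals treat reads as if they were molecules. The 10 genes are all described in full, and of other lists the genes past 2-fold and the 2 with the highest mean CPM. Lists of muscle, fat, neutrophil, sebocyte, red cell, fibroblast and keratinocyte markers are given as sums, some with single genes named. Other genes were named after their values were seen. The genes and lists were chosen with earlier results of these data known. Calculations were tested on simulated data.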

Additional observations from a re-analysis of the deposited data

How the results depend on the processing

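No paired analysis was possible because each genotype has 1 library, and for the same reason no replicate could be left out. Against TMM scaling, the alternatives were plain CPM, relative log expression size factors, TMM without the 50 most abundant genes and upper-quartile scaling, with pseudocounts of 0.1 and 5 CPM and with no filter or a filter of 5 CPM. The number of genes at least 2-fold lower went from 1 (Hpgds) to 0 with plain CPM and to 0 with a pseudocount of 5 CPM, and the number higher was 1 (Mcpt4) in every setting tried. The ratio of the protease sum went from 1.34 to 1.497 with plain CPM. Plain CPM moved the median log2 ratio of all genes from 0.01 to 0.16 and that of the mast cell genes from 0.11 to 0.25. The ratio of Tpsab1 was 0.999 with upper-quartile scaling and 1.12 with plain CPM. The filter of 5 CPM left 8 genes, with a median of 0.23. Lengths from the longest transcript moved 8 of 20 levels per kb past their counting interval, those of Kit, Hpgds, Gata2 and Tpsb2 in both libraries. Depth limits Mrgprb2 (23 and 21 counts) and Tpsab1 (34 and 43 counts) most.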
